A study of Mus musculus with 6 samples.

Results

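The genes described here are those for heterotrimeric G proteins (Gna, Gnb and Gng), regulators of G protein signaling (Rgs), adenylyl cyclases (Adcy), cyclic nucleotide phosphodiesterases (Pde), G protein signaling modulators (Gpsm) and the Rasd small GTPases, as they were found in ribosome-bound RNA of kisspeptin (*Kiss1*) cells of the medial amygdala (MeA) of female mice. They were picked out by a pattern of gene symbols, a choice made with earlier results of these data known, and 2 symbols that the pattern matches were left out. This gave 73 genes of the 13886 protein-coding genes in the deposited table. RNA-seq had been run on 3 libraries from ovariectomized (OVX) females and on 3 from OVX females given estradiol (E2) for 5 days. All mice were Kiss1Cre+/Rpl22HA+/+, so that cells in which the *Kiss1* promoter drives or has driven Cre carry HA-tagged ribosomes, and each library was the HA immunoprecipitate of MeA punches pooled from 4 brains. All females had been ovariectomized at 8 weeks of age, treated with E2 for 4 days and left without it for 7 days before the final 5 days with or without E2, so that the OVX group was not free of earlier E2 exposure.

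A G protein is a switch made of an α subunit, which binds GTP, and a βγ pair. A receptor loads the α subunit with GTP, and α and βγ then act on separate targets. Stimulatory α subunits such as αolf activate adenylyl cyclases, the αi and αo subunits inhibit some of them, and αq and α11 activate phospholipase C β. RGS proteins speed the hydrolysis of GTP and so shorten the signal, phosphodiesterases break down cAMP and cGMP, and Gpsm and Rasd proteins modulate G proteins without a receptor. Kisspeptin cells, like other neurons, receive most neuropeptide and monoamine signals through these proteins.

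Because many of these genes belong to families of similar sequence, it was first examined whether reads could be told apart between them. The reads were 75 bases long. Each stretch of 75 bases in the longest coding transcript of each gene was searched for in the coding transcripts of other genes. None was found in another of the 73 genes, and 59 of the 73 shared none with any other protein-coding gene. Of the 14 that did, 7 shared over 10% of their stretches, namely *Pde2a* (88.8%), *Gng10* (78.4%), *Gng13* (44.3%), *Adcy3* (22.4%), *Gng3* (20.7%), *Gnal* (13.8%) and *Gpsm3* (12.1%), and the counts of these 7 could depend on how the reads were divided between overlapping gene models. In the 2 pairs of related genes that the results below turn on, the genes shared none with each other by this search. Stretches found only in shorter transcripts of the 73 genes, noncoding genes and inexact matches were not searched. The most alike stretches of 75 bases within single coding exons are shown for these pairs to make visible how close the genes are. They are written 5′ to 3′ on the gene's strand, and capitals mark the bases that differ between the genes of a pair. *Rasd1* (GRCm38 chr11:59964520-59964594, minus strand, exon 1) and *Rasd2* (chr8:75218741-75218815, plus strand, exon 2) had 61 of 75 bases in common and differed at 14.
Rasd1: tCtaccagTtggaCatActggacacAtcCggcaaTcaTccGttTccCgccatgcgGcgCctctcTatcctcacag
Rasd2: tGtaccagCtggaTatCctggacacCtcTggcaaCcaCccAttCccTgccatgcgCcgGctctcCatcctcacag
*Rgs8* (chr1:153690909-153690983, plus strand, exon 6) and *Rgs16* (chr1:153741974-153742048, plus strand, exon 4) lie on the same chromosome, with 40025 bases between the end of *Rgs8* and the start of *Rgs16*. Their most alike coding stretch had 69 of 75 bases in common and differed at 6.
Rgs8: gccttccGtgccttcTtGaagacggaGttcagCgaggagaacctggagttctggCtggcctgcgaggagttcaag
Rgs16: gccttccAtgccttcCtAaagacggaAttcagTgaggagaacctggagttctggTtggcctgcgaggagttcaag
The coding sequences without the stop codon were 840 bases for *Rasd1*, 798 for *Rasd2*, 540 for *Rgs8* and 603 for *Rgs16*.

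The library sizes that the deposited values carry after scaling were 28100000 to 34200000 counts for OVX and 30300000 to 34000000 for E2, and the correlation across genes between any 2 libraries was 0.977 to 0.989. The values are the log2 of counts scaled to a common library size (log2 CPM). *Kiss1* itself was listed under 2 gene identifiers, and values are given for ENSMUSG00000115958 only. This entry stood at 2.29, 1.82 and 1.13 log2 CPM in the OVX libraries and at 3.72, 3.80 and 3.45 in the E2 libraries. It was higher with E2 (log2 difference 1.91, SE 0.26, limma with Benjamini-Hochberg adjustment, adjusted p = 0.00475). Neuron markers were even between the groups (4 of 8 higher, median log2 difference 0.00). Markers of cells that should carry no tag were also present, and summed to 1789 to 2216 CPM in OVX and 1945 to 2342 CPM in E2 for astrocytes and to 1701 to 2368 CPM and 1899 to 2623 CPM for the oligodendrocyte lineage, so the levels below cannot be assigned to *Kiss1* cells alone. The markers that were called were the globin genes *Hba-a1* (log2 difference 1.01, SE 0.16) and *Hba-a2* (1.04, SE 0.20), of 102 genes in 11 marker and response lists.

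The 73 genes included members of every step from the α subunits to the phosphodiesterases, and in each family a few members held much of the level. Levels of different genes were compared per kilobase of the longest annotated transcript (log2 CPM per kb), and shares are of the summed CPM per kb of the family's members among the 73. Orders and shares thus leave out the 2 symbols that were not taken. The highest were *Gnb2* (7.68), *Gnb1* (7.52), *Pde2a* (7.30), *Gnao1* (7.10), *Gng3* (6.84), *Rgs4* (6.56), *Gnai2* (6.45), *Gnb5* (6.20), *Gng2* (6.12) and *Pde1b* (6.08), each as the mean of 6 libraries. Without division by length the highest level was that of *Gnao1* (9.56 log2 CPM) and the lowest that of *Gng8* (0.24 log2 CPM).

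**Figure D1:**
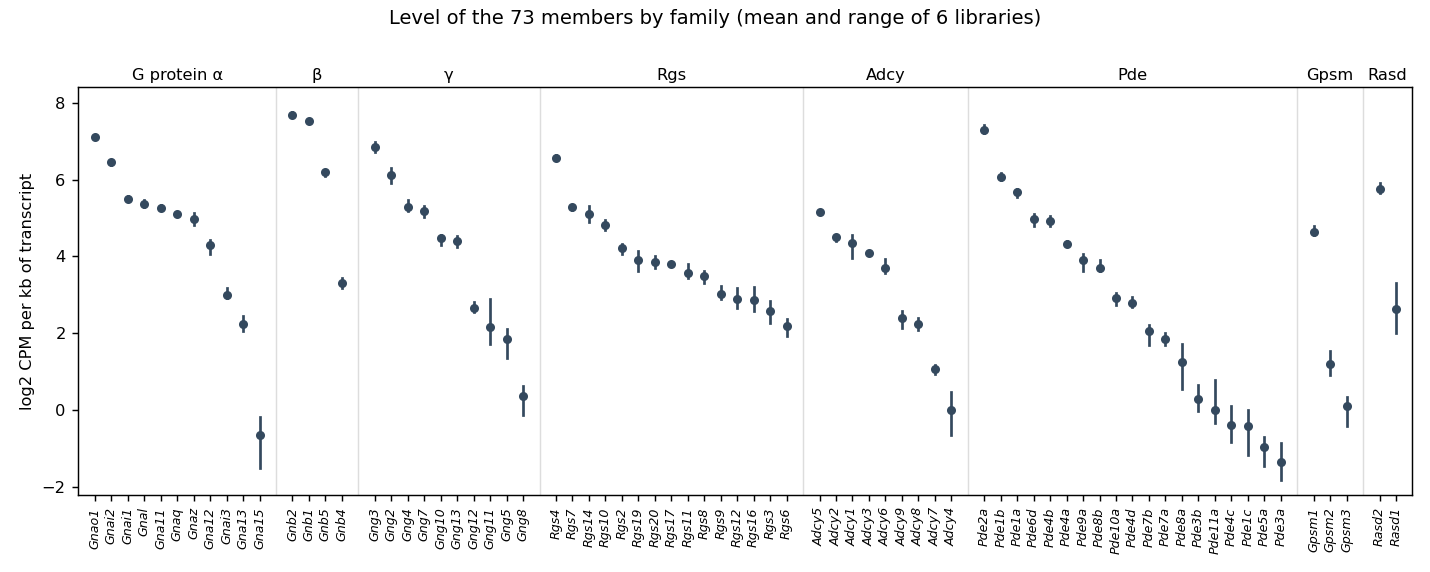
Level of each of the 73 genes, by family, as log2 CPM per kilobase of transcript; points are means and vertical lines the range of all 6 libraries. The β subunits *Gnb2* and *Gnb1* stand highest, at 7.68 and 7.52, and *Pde3a* lowest, at -1.35, and most neighbours low in a family overlap in their ranges.

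Among the α subunits, *Gnao1*, which encodes αo and is the usual major α subunit of neurons, held 29.8 to 31.5% of the level of the 11 members in the 6 libraries. *Gnai2*, an αi subunit, held 18.6 to 20.3%, and the ranges of these 2 genes were apart from each other and from those below. *Gnai1* (5.50 log2 CPM per kb), *Gnal* (5.37) and *Gna11* (5.27) followed, with each overlapping the next in its range. *Gnal* encodes αolf, the stimulatory subunit of olfactory and striatal neurons, and 852 bases of its exons overlap those of *Mppe1*. *Gnaq*, the other main activator of phospholipase C β, stood at 5.10, *Gna12* at 4.29 and *Gna13* at 2.24, the last pair forming the 12/13 family. *Gnaz*, which pertussis toxin does not block, stood between *Gnaq* and *Gna12* at 4.97, and *Gnai3* between *Gna12* and *Gna13*. The lowest was *Gna15*, an αq family member of blood cells, at -0.64.

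Of the β subunits, *Gnb2* and *Gnb1* held 41.5 to 44.5% and 37.7 to 40.3% of the level. *Gnb5*, which pairs with RGS proteins of the R7 family in place of a γ subunit, held 14.9 to 16.3%, and *Gnb4* 1.95 to 2.31%, with all 4 ranges apart. The γ subunits were led by *Gng3* (34.5 to 37.1%) and *Gng2* (19.4 to 23.0%), followed by *Gng4* and *Gng7*, whose ranges overlapped.

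*Rgs4*, an R4 family member of cortical and limbic neurons, held 28.5 to 31.1% of the RGS level and stood apart from all others. *Rgs7* (5.28 log2 CPM per kb) and *Rgs14* (5.11) were next and overlapped, as did *Rgs14* and *Rgs10* (4.81). From *Rgs2* (4.22) down to *Rgs8* (3.48) the range of each overlapped the next, through *Rgs19* (3.92), *Rgs20* (3.86), *Rgs17* and *Rgs11* (3.57). These ranges pool all 6 libraries, and neighbours were not compared within each library, so overlap does not show that they were equal.

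Of the cyclases, *Adcy5*, which calcium inhibits and which is the main striatal form, was highest (28.4 to 31.0% of the level). *Adcy2* (4.51 log2 CPM per kb), which βγ stimulates, overlapped *Adcy1* (4.35), and *Adcy1* overlapped *Adcy3* (4.10). These latter 2 are stimulated by calcium through calmodulin. *Adcy6* (3.70), the second cyclase that calcium inhibits, and *Adcy9* (2.41) were lower, and *Adcy7* stood at 1.08.

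Of the phosphodiesterases, *Pde2a*, which degrades both cyclic nucleotides and is stimulated by cGMP, was listed with 36.9 to 39.4% of the level, although 3955 of its 6149 exonic bases are shared with the gene model *Gm45837*. The calcium-dependent *Pde1b* and *Pde1a* held 15.7 to 16.9% and 11.7 to 12.9%. Among the forms specific for cAMP, *Pde4b* (4.91) and *Pde4a* (4.32) were highest. Of those specific for cGMP, *Pde9a* (3.91) was highest. *Pde6d* (4.97), a member by its symbol, encodes a prenyl-binding chaperone and has no catalytic activity of its own, but is counted in the shares of the family. *Gpsm1*, which holds αi in its GDP-bound form, stood at 4.64 and *Gpsm2* at 1.21, and *Rasd2* held 83.7 to 93.4% of the level of the 2 Rasd genes.

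The next question was which of these genes E2 changed. *Rasd1* was the only member past the threshold of an adjusted p under 0.05 (limma, Benjamini-Hochberg over all 13886 genes), that is 1 of 73, and it was higher with E2. Over all genes 0.288% passed, and 0.23% passed and were higher. The other 72 members did not pass, and their log2 differences lay between -0.53 for *Gna15* and 0.40 for *Gng5* and *Rgs16*. In all, 37 members were higher and 36 lower, with a median log2 difference of 0.02 against 0.00 for all genes and a median absolute difference of 0.08 against 0.09. For 58 members the 95% interval of the difference lay within 1.5-fold in either direction. Of the 15 for which it did not, 14 had a mean under 3.5 log2 CPM, *Rasd1* among them, and the remaining one was *Rgs16* (interval 0.13 to 0.66). For low genes such as *Gna15* (interval -1.47 to 0.41) and *Gng8* (-0.74 to 1.12) changes of this size were thus not detectable at this depth.

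**Figure D2:**
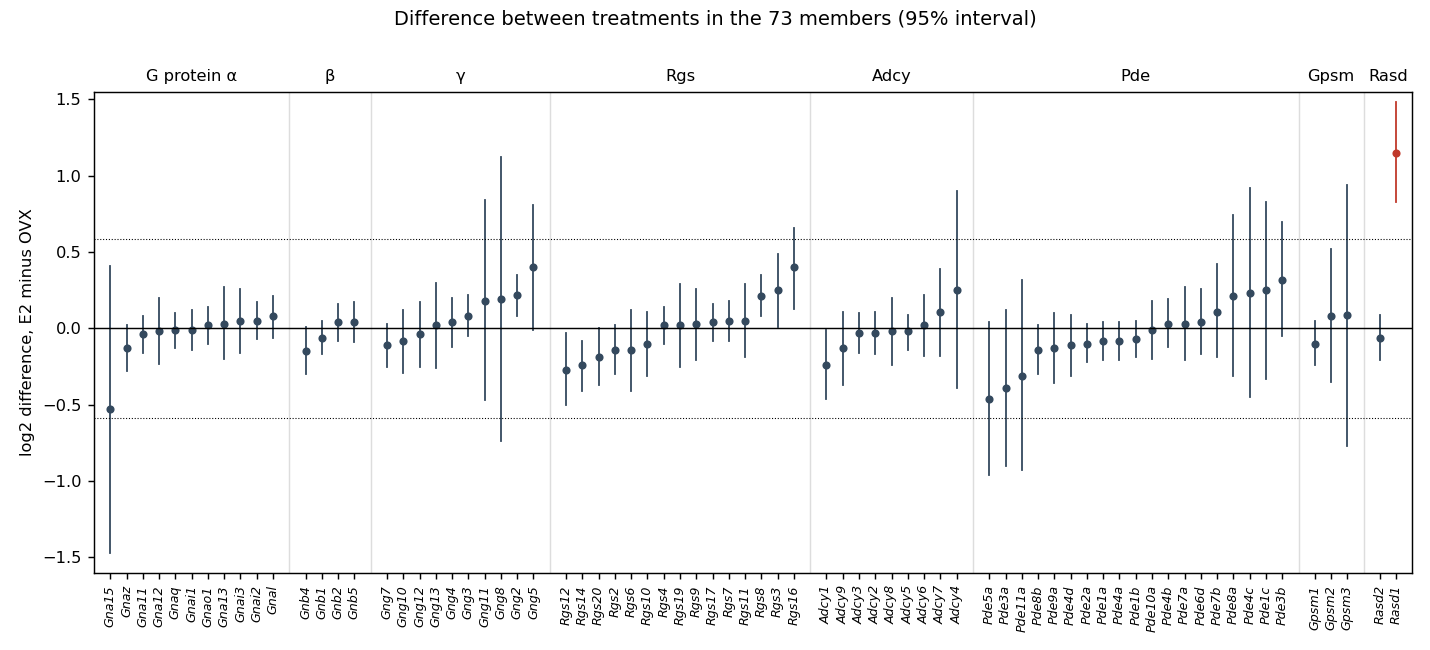
Log2 difference of E2 minus OVX for each of the 73 genes, by family and in order of the difference; vertical lines are 95% intervals from limma, dotted lines mark 1.5-fold in either direction, and red marks the member past the threshold. *Rasd1* stands at 1.15, and the point of every other gene lies between -0.53 and 0.40.

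*Rasd1*, also known as dexamethasone-induced Ras, is a small GTPase that can activate Gi proteins without a receptor and that glucocorticoids are known to induce. It lies on chromosome 11 at 59963181 to 59964944, on the minus strand of GRCm38, and the longest transcript has 1611 bases. Its level was 2.69, 2.75 and 2.77 log2 CPM in the OVX libraries and 4.00, 3.99 and 3.68 log2 CPM in the E2 libraries. The OVX libraries were nearly equal and all E2 libraries lay above them, with E2 replicate 3 the lowest of its group. As group means this was 6.67 CPM in OVX and 14.9 CPM in E2, a 2.22-fold level with E2 (log2 difference 1.15, SE 0.15, 95% interval 0.83 to 1.48, limma adjusted p = 0.0041). Among all genes it was the 10th by p. The difference was 1.10 to 1.26 when each library was left out in turn, with a limma adjusted p of 0.00611 to 0.043. Without a mean-variance trend in limma the difference was the same but the adjusted p was 0.175, a setting in which no gene of the table passed.

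Other genes that glucocorticoids induce were measured beside it, since *Rasd1* is known as one of them. Of 10 such genes, 9 were higher with E2 and 0 passed the threshold, while 4 had an unadjusted p under 0.05, all higher (limma; median log2 difference 0.25, range -0.04 to 1.08). Over all genes, 4.21% were higher and 4.34% lower with such a p. Their summed level was 299 to 342 CPM in OVX and 349 to 393 CPM in E2, so the groups did not overlap. Of the most abundant, *Tsc22d3* had a log2 difference of 0.39 (SE 0.11), *Mt1* of 0.28 (SE 0.10), *Fkbp5* of 0.12 (SE 0.09) and *Per1* of -0.04 (SE 0.07). Immediate early genes, which mark recent activity, were higher in 1 of 10 (median -0.26, 0 past the threshold and 2 with an unadjusted p under 0.05 in limma, both lower). The part of either in the *Rasd1* difference was not tested. As the RNA came from pooled punches, more tagged cells that express *Rasd1*, more *Rasd1* RNA per cell and more *Rasd1* RNA from untagged cells cannot be told apart. The same holds for every other difference given here for a signaling gene.

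*Rasd2*, the striatal relative also called Rhes, did not pass the threshold. It was at 7.18, 7.26 and 7.39 log2 CPM in OVX and at 7.16, 7.33 and 7.14 log2 CPM in E2 (log2 difference -0.06, SE 0.07, 95% interval -0.21 to 0.09, limma adjusted p = 0.875), and the groups overlapped. Per kilobase, *Rasd2* was 12.9 to 14.1 times *Rasd1* in the OVX libraries and 5.13 to 6.31 times in the E2 libraries, without overlap. Of 11 other listed RAS family relatives, 3 were higher and 8 lower, 0 passed the threshold (limma), and 1 had an unadjusted p under 0.05. This was *Rasl10a*, named after its values were seen, at 3.97, 3.91 and 3.89 log2 CPM in OVX and at 3.20, 3.28 and 3.69 in E2, with all E2 libraries below all OVX libraries (log2 difference -0.54, SE 0.15, limma adjusted p = 0.263). The most abundant of them, *Diras2* (-0.12, SE 0.08), *Rasl10b* (-0.08, SE 0.07), *Hras* (-0.04, SE 0.06) and *Diras1* (-0.02, SE 0.06), were all below 0 with intervals that held 0.

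The members with the next smallest p-values are described with their values, since none passed the threshold. An unadjusted p under 0.05 was found for 5 members that were higher with E2, which is 6.85% of the 73 against 4.21% of all genes, and for 3 that were lower, 4.11% against 4.34%. Every E2 library was above every OVX library for 4 members (5.48%, against 6.85% of all genes) and below for 6 (8.22%, against 6.82%). By these counts the members did not stand out from the table.

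**Figure D3:**
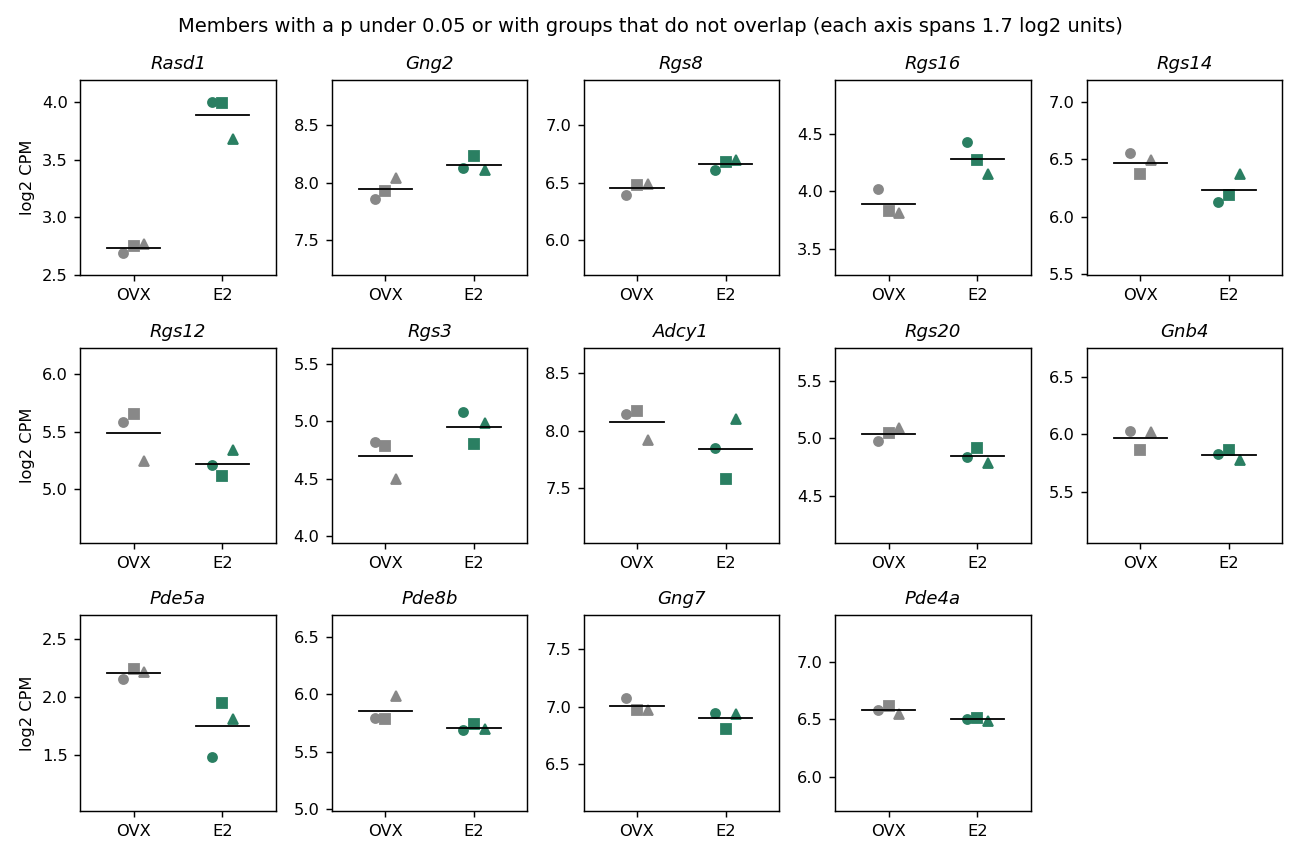
Log2 CPM of the 14 members with an unadjusted p under 0.05 or with groups that do not overlap, in each OVX (grey) and E2 (green) library; circles, squares and triangles are replicates 1, 2 and 3, horizontal lines are group means, and all vertical axes span the same number of log2 units. The gap is widest for *Rasd1*, from 2.77 in the highest OVX library to 3.68 in the lowest E2 library.

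Among the RGS genes the R4 family, which act on αi and αq, had 4 of the 5 members measured here higher with E2 (median log2 difference 0.21), and the R12 family had 3 of 3 lower (median -0.24), while the R7 and RZ families lay near 0 (medians 0.04 and 0.02). None of the 15 passed the threshold in limma, and 5 had an unadjusted p under 0.05. Over all genes, 1188 of 13886 had such a p. The subfamilies are small and were not tested as sets. *Rgs8* was at 6.39, 6.48 and 6.49 log2 CPM in OVX and at 6.61, 6.68 and 6.70 in E2, so the groups did not overlap (log2 difference 0.21, SE 0.06, limma adjusted p = 0.287). Its neighbour on chromosome 1, *Rgs16*, was at 4.02, 3.83 and 3.81 in OVX and at 4.43, 4.27 and 4.15 in E2, again without overlap (0.40, SE 0.12, limma adjusted p = 0.316).

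The third R4 gene, *Rgs3*, was at 4.82, 4.78 and 4.50 log2 CPM in OVX and at 5.08, 4.80 and 4.98 in E2 (log2 difference 0.25, SE 0.11, limma adjusted p = 0.547), with E2 replicate 2 between the OVX libraries, and the difference was 0.15 without OVX replicate 3. *Rgs4*, the most abundant, was near 0 (0.02, 95% interval -0.10 to 0.14), and *Rgs2* was at -0.14 (interval -0.30 to 0.02).

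In the R12 family *Rgs14*, which also binds inactive αi and is best known from hippocampal area CA2, was at 6.55, 6.37 and 6.49 log2 CPM in OVX and at 6.13, 6.19 and 6.37 in E2 (log2 difference -0.24, SE 0.08, limma adjusted p = 0.347). *Rgs12* was at 5.58, 5.65 and 5.24 in OVX and at 5.21, 5.11 and 5.34 in E2 (-0.27, SE 0.11, limma adjusted p = 0.499). In both genes E2 replicate 3 reached into the OVX range. *Rgs10* was at -0.10 (interval -0.31 to 0.11).

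In the R7 family *Rgs7* (0.05), *Rgs11* (0.05) and *Rgs9* (0.03) had intervals that held 0. Of the RZ family, *Rgs20*, which acts on αz and αi, did not overlap between the groups, with 4.98 to 5.09 log2 CPM in OVX and 4.79 to 4.92 in E2 (log2 difference -0.19, SE 0.09, limma adjusted p = 0.585). *Rgs19* was at 0.02, with an interval of -0.25 to 0.29.

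The abundant α subunits were close to equal between the groups. None of the 11 passed the threshold or had an unadjusted p under 0.05 (limma), and 10 had an interval within 1.5-fold. *Gnao1* was at 9.52 to 9.59 log2 CPM in OVX and 9.54 to 9.64 in E2 (log2 difference 0.02, interval -0.10 to 0.14). *Gnai2* was at 0.05 (interval -0.07 to 0.17), *Gnaq* at -0.01 (-0.13 to 0.10), *Gna11* at -0.04 (-0.16 to 0.08), *Gna12* at -0.02 (-0.23 to 0.20) and *Gna13* at 0.03 (-0.20 to 0.27).

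Of the β subunits, *Gnb2* (0.04, interval -0.08 to 0.16) and *Gnb1* (-0.06, interval -0.17 to 0.05) were near 0, and *Gnb4* did not overlap, although its closest libraries were equal to 2 decimals, at 5.86 to 6.03 log2 CPM in OVX and 5.78 to 5.86 in E2 (log2 difference -0.15, SE 0.07, limma adjusted p = 0.605). The γ subunits had 7 of 10 members higher (median 0.06, and 0.002 without E2 replicate 2). *Gng2*, the second most abundant, was at 7.86, 7.93 and 8.04 log2 CPM in OVX and at 8.13, 8.23 and 8.11 in E2, and all E2 libraries were above all OVX libraries (log2 difference 0.22, SE 0.06, limma adjusted p = 0.279). *Gng7*, which pairs with αolf in the striatum, was lower without overlap, at 6.97 to 7.08 in OVX and 6.81 to 6.95 in E2 (-0.11, SE 0.06, limma adjusted p = 0.695). *Gng3* was at 0.08 (interval -0.05 to 0.22).

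Among the cyclases only *Adcy1* had an unadjusted p under 0.05. It was at 8.15, 8.17 and 7.92 log2 CPM in OVX and at 7.85, 7.58 and 8.10 in E2 (log2 difference -0.24, SE 0.11, limma adjusted p = 0.563), and E2 replicate 3 was above OVX replicate 3. The difference was -0.10 without E2 replicate 2 and -0.36 without E2 replicate 3. *Adcy5* was at 7.95 to 8.01 in OVX and 7.90 to 8.01 in E2 (-0.02, interval -0.14 to 0.09). *Adcy2* (-0.03), *Adcy3* (-0.03), *Adcy6* (0.02), *Adcy9* (-0.13) and *Adcy7* (0.11) had intervals that held 0.

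Of the 19 phosphodiesterases, 8 were higher and 11 lower with E2 (median log2 difference -0.07, and -0.027 with quantile normalization). None passed the threshold and none had an unadjusted p under 0.05 (limma). Without overlap, 3 were lower, as were 6.82% of all genes. These 3 were *Pde5a*, specific for cGMP, at 2.16 to 2.24 log2 CPM in OVX and 1.48 to 1.95 in E2 (log2 difference -0.46, SE 0.23), and the cAMP-specific *Pde8b*, at 5.78 to 5.98 and 5.69 to 5.74 (-0.14, SE 0.08), and *Pde4a*, at 6.55 to 6.62 and 6.49 to 6.51 (-0.08, SE 0.06). The limma adjusted p-values of these 3 were 0.623, 0.674 and 0.773. The abundant *Pde2a* was at -0.10 (interval -0.22 to 0.03; -0.03 with quantile normalization), *Pde1b* at -0.07 (-0.19 to 0.05) and *Pde4b* at 0.03 (-0.12 to 0.19). *Pde6d* (0.04) and *Pde9a* (-0.13), as well as *Gpsm1* (-0.10, interval -0.24 to 0.05) and *Gpsm2* (0.08, -0.35 to 0.52), also held 0 in their intervals.

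The genes by which cAMP signaling of striatal neurons is usually recognized, *Gnal*, *Gng7*, *Adcy5*, *Pde10a*, *Pde1b*, *Rgs9* and *Rasd2*, were all listed, at unlike levels. *Pde1b* (6.08 log2 CPM per kb), *Rasd2* (5.75), *Gnal* (5.37), *Gng7* (5.17) and *Adcy5* (5.16) stood above *Rgs9* (3.02) and *Pde10a* (2.92). Of the 73 genes, *Rgs9* ranked 44 and *Pde10a* 46 by this level. With E2, 2 of the 7 were higher and 5 lower (median log2 difference -0.02, range -0.11 to 0.08, 0 past the threshold in limma and 0 with an unadjusted p under 0.05). The log2 difference was 0.08 for *Gnal* (interval -0.06 to 0.21) and -0.01 for *Pde10a* (-0.20 to 0.18). Of 10 markers of striatal projection neurons 9 were listed, with a sum of 141 to 195 CPM in OVX and 148 to 182 CPM in E2.

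The summed level of markers of forebrain excitatory neurons was set beside some of these values. All 10 of them were lower with E2 (median log2 difference -0.40), none passed the threshold and 8 had an unadjusted p under 0.05 (limma), and their summed level was 5718, 5768 and 5499 CPM in the OVX libraries and 4861, 4817 and 5424 CPM in the E2 libraries. The highest of them were *Camk2a* (-0.18, SE 0.08), *Nrgn* (-0.02, SE 0.07), *Slc17a7* (-0.42, SE 0.11) and *Tbr1* (-0.05, SE 0.07), and none was at 0 in any library. *Rgs14*, *Rgs12* and *Adcy1* were lowest in E2 replicates 1 and 2, the libraries in which the sum of these markers was lowest, and *Rgs8* was not. These were the members lower with E2 at an unadjusted p under 0.05 (limma), and *Rgs8* was higher at such a p. Low or high E2 values were thus part of their choice. Members lower without overlap did not share this order. In *Gnb4*, *Gng7*, *Rgs20*, *Pde4a*, *Pde8b* and *Pde5a*, E2 replicate 3 was below E2 replicate 1, E2 replicate 2 or both. Not every marker followed the sum. *Nrgn* was at 10.63 log2 CPM in E2 replicate 2 and 10.45 in OVX replicate 2, and *Tbr1* at 6.19 in E2 replicate 2 and 6.07 in OVX replicate 1. The part of these markers in the differences was not tested.

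**Figure D4:**
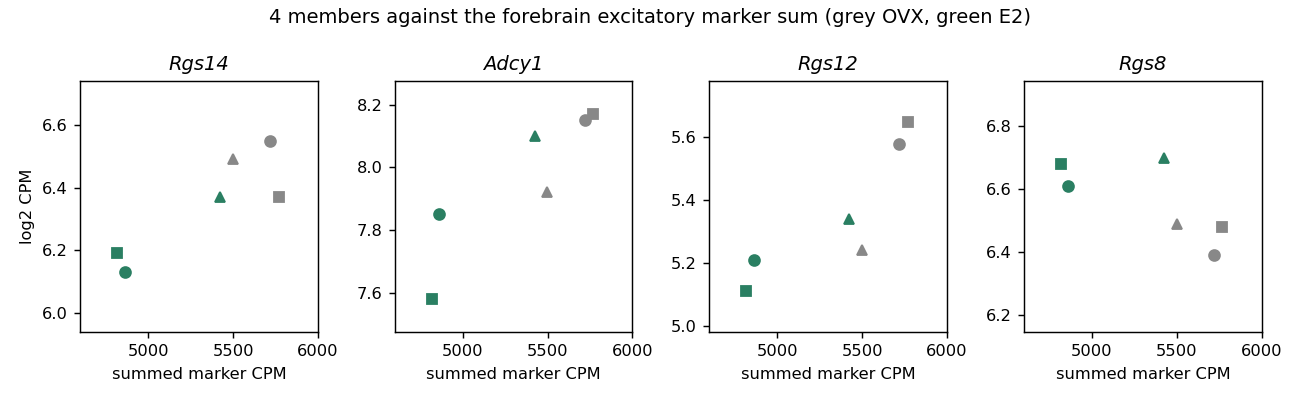
Log2 CPM of *Rgs14*, *Adcy1*, *Rgs12* and *Rgs8* against the summed CPM of 10 forebrain excitatory neuron markers, 1 point for each library (grey OVX, green E2; circles, squares and triangles are replicates 1, 2 and 3). E2 replicates 1 and 2 lie at the lowest sums, 4861 and 4817 CPM, and E2 replicate 3, at 5424 CPM, lies beside the OVX libraries. *Rgs14*, *Adcy1* and *Rgs12* were picked as lower with E2 and *Rgs8* as higher.

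Listed effectors, partners and relatives of these proteins gave no calls either. Of 83 listed genes in 8 groups, 0 passed the threshold (limma), 39 were higher, and 2 higher and 6 lower ones had an unadjusted p under 0.05. Over all genes, 4.21% were higher and 4.34% lower with such a p. Receptors that load G proteins did not form any of the 8 groups. For the cAMP effectors (protein kinase A, EPAC, CREB and CRTC) 11 of 18 were higher, and *Prkar1b* (-0.01, SE 0.06), *Prkar1a* (0.05, SE 0.06), *Prkacb* (0.08, SE 0.06) and *Crtc1* (-0.12, SE 0.06) were the most abundant. Anchoring proteins of protein kinase A were higher in 5 of 10, and *Akap11* had the one unadjusted p under 0.05 among them (-0.18, SE 0.07).

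Genes for phospholipase C β, which αq activates, for protein kinase C and for calcium release channels were higher in 9 of 16. Of these, 2 higher and 2 lower ones had an unadjusted p under 0.05 (limma). The smallest p of the list was that of *Prkca*, named after its values were seen. It was higher with E2 without overlap (log2 difference 0.23, SE 0.05, limma adjusted p = 0.125). Of the abundant ones, *Prkce* had a log2 difference of 0.01 (95% interval -0.10 to 0.13) and *Itpr1*, the calcium release channel that the pathway opens, one of -0.11 (interval -0.23 to 0.01). Receptor kinases and arrestins, which uncouple receptors from G proteins, were higher in 3 of 7, with *Arrb1* at 0.02 (SE 0.06) and *Grk2* at -0.03 (SE 0.05). Genes for cGMP production and its kinases were higher in 2 of 9, with *Nos1* at 0.09 (SE 0.06).

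Chaperones and partners of G proteins and RGS proteins were higher in 5 of 9, with *Gprin1* at -0.14 (SE 0.06) and *Rgs7bp*, the membrane anchor of R7 proteins, at 0.13 (SE 0.08). Of the channels that βγ opens, *Kcnj9* was at 7.30 to 7.31 log2 CPM in OVX and 7.10 to 7.22 in E2 (log2 difference -0.16, SE 0.06, limma adjusted p = 0.429), *Kcnj3* was at -0.02 (SE 0.06) and *Kcnj6* at 0.08 (SE 0.16).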

How the data were processed

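The 6 libraries, 3 OVX and 3 E2, were grouped by their labels' treatment, and each held the HA immunoprecipitate of pooled MeA punches. Per the labels and the study's methods, the authors made unstranded, polyA-selected libraries, checked reads with FastQC version 0.11.8, trimmed with Trimmomatic version 0.38, aligned to GRCm38 with STAR version 2.6.0a, quantified with RSEM, kept protein-coding genes, and deposited log2 CPM after TMM scaling and voom, which adds 0.5 to each count. Reads that map to overlapping genes cannot be told apart by strand. The authors' second table, of their own comparison (mean levels, log2 fold changes, p-values), was not used.

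On the deposited log2 CPM, limma version 3.58.1 (R version 4.3.3; lmFit, eBayes with a mean-variance trend) was fitted to all 13886 genes as E2 minus OVX, 2-sided, with Benjamini-Hochberg adjustment over all of them and a threshold of 0.05. No further filter was applied, and the step was tested on simulated data. Intervals are 95% intervals of the fit. Each library is 1 pool, so the replicates behind the p-values are 3 pools a group. The variance of each gene was moderated toward a trend over all genes, so p-values do not rest on that gene's spread between pools alone. Positions, lengths and sequences came from GENCODE mouse release 21 (GRCm38), another annotation release than the authors'. Libraries with the same number did not deviate together (correlations -0.02, -0.12 and -0.08), so numbers were not taken as pairs.

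The members and gene lists were chosen with earlier results of these data known. Members named with values are those with an adjusted or unadjusted p under 0.05, those whose groups do not overlap, the 2 highest per kilobase of each subfamily, the highest and lowest of all and the striatal-type members. Of the other lists, called genes and at most the 4 most abundant are named. A gene that this rule names is not reported here. Members beyond this rule (*Gnai1*, *Gnai3*, *Gnaz*, *Gna15*, *Gnb5*, *Gng4*, *Gng5*, *Gng10*, *Gng13*, *Rgs17*, *Pde1a*, *Pde3a* and *Gpsm3*) were named after their values were seen, to complete an order, a range or a count. The alternatives were no trend, voom weights on counts rebuilt from the log2 CPM, median centring, quantile normalization, a mean of at least 1 log2 CPM, log2 of CPM plus 1, a replicate block, each library left out, and levels not divided by length.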

Additional observations from a re-analysis of the deposited data

How the results depend on the processing

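The 40 genes of the whole table past the threshold became 46 with voom weights, 42 and 41 with median centring and quantile normalization, 46 with a mean of at least 1 log2 CPM and 46 with log2 of CPM plus 1, and 0 without a mean-variance trend in limma (1017 with an unadjusted p under 0.05). With each library left out they were 20 to 66, with 21 without OVX replicate 1, 26 without E2 replicate 1, 20 without E2 replicate 2 and 66 without E2 replicate 3. The members past the threshold remained at a count of 1, *Rasd1*, under each of these but the fit without a trend, where they were 0 (7 with an unadjusted p under 0.05) and *Rasd1* had an adjusted p of 0.175. Under the other settings its limma adjusted p was 0.00328 to 0.043, the highest without E2 replicate 2. With the replicate number as a block, 35 genes and 1 member passed, and the adjusted p of *Rasd1* was 0.012; the numbers do not pair the libraries. The 10 members whose groups do not overlap were 13 to 27 with 1 library left out (21 without OVX replicate 2, 19 without OVX replicate 3, 16 without E2 replicate 2, 27 without E2 replicate 3), as fewer libraries overlap less often by construction. The median log2 difference of the members, 0.019, was 0.010 with median centring, 0.009 with quantile normalization, 0.006 with the filter, and -0.027 to -0.004 with a library left out, so its sign is not settled. Quantile normalization took the median of the phosphodiesterases from -0.07 to -0.027, *Pde2a* from -0.10 to -0.03 and *Gnb1* from -0.06 to 0.00. Alternatives for the pathway and marker lists were added after the data were seen. The pathway lists had 0 calls under all of them, and the marker lists, 2 calls, had 0 without a trend (12 with an unadjusted p under 0.05), 1 with quantile normalization, 4 with the replicate block and 0 to 5 with a library left out (0 without OVX replicate 1 or 3, 5 without OVX replicate 2, 1 without E2 replicate 2). Of the 10 highest members per kilobase, 7 were also among the 10 highest by level not divided by length. With 3 pools a group and no input or untagged libraries analysed here, small differences and the cell of origin are beyond these data.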

Other observations

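Markers of other cells that the immunoprecipitate could hold were measured beside the 73 genes. Astrocyte markers were higher with E2 in 10 of 10 (median log2 difference 0.13, 0 past the threshold and 3 with an unadjusted p under 0.05 in limma), and oligodendrocyte lineage markers in 10 of 11 (0.15, 0 past the threshold and 4 with an unadjusted p under 0.05 in limma). Endothelial and mural markers were higher in 10 of 13 (0.10, 0 past the threshold and 0 with an unadjusted p under 0.05 in limma), at 170 to 320 CPM in OVX and 203 to 275 CPM in E2. Microglia markers were higher in 2 of 10 (-0.06, 0 past the threshold and 1 with an unadjusted p under 0.05 in limma) and striatal projection neuron markers in 5 of 9 (0.05, with 0 at either threshold in limma).

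Erythroid markers were higher in all 4 listed (median log2 difference 1.06, 2 past the threshold in limma), with a sum of 121 to 228 CPM in OVX and 280 to 447 CPM in E2. Choroid plexus markers were lower in 7 of 7 (-0.43, 0 past the threshold and 2 with an unadjusted p under 0.05 in limma), with a sum of 691 to 1083 CPM in OVX and 397 to 1019 CPM in E2. No gene of the 73 serves as a marker in these lists.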
